A study of Mus musculus with 24 samples.

Results

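The Cyp2 and Cyp3 families of cytochrome P450 genes were followed in the liver of mice fed 3 diets. A gene was taken when a probe set of the array carried 1 gene symbol, that symbol began with Cyp2 or Cyp3 followed by a subfamily letter and a number, and it was not marked as a pseudogene. For each gene the probe set with the highest mean over the 23 fitted arrays was kept. This gave 54 genes (57 probe sets), out of 22180 genes with such a probe set and 41345 probe sets on the array. They belong to Cyp2a (4 genes), Cyp2b (5), Cyp2c (14), Cyp2d (9), Cyp2j (7) and Cyp3a (7), and Cyp2e, Cyp2f, Cyp2g, Cyp2r, Cyp2s, Cyp2t, Cyp2u and Cyp2w had 1 gene each. The symbol of Cyp2d13 is annotated by RefSeq as a transcribed pseudogene.

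Male C57BL/6J mice were given a control diet, a high-fat diet with eicosapentaenoic and docosahexaenoic acid (HFD-EPA/DHA) or a high-fat diet with corn oil (HFD-corn oil) for 8 or 12 weeks, and 1 array was run per mouse, 4 mice per group. The HFD-EPA/DHA diet held less corn oil and, in its place, oils enriched in these n-3 acids. Both high-fat diets held added cholesterol and more sucrose than the control diet, so either of them differed from control in more than its fat. The mice of 8 and of 12 weeks came from separate studies that began at 9 and 10 weeks of age, so time and study cannot be told apart. The choice of mice for the arrays went by their weight and plasma lipids, and mice shared cages that the labels do not name, so p-values measure the spread between these mice. As in the study, an HFD-corn oil mouse was not used for the tests. This was replicate 3 of 8 weeks, where 26 of 54 values lay below the lowest and 13 above the highest of the other 3 mice. Within their range lay 15, and the same count was not made over all probe sets. Values are log2 signals, and a log2 fold change is a difference of group means, given ± SE.

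Cytochrome P450 enzymes of these families sit in the membrane of the endoplasmic reticulum, where a heme iron inserts 1 oxygen atom into drugs, steroids, bile acids and unsaturated fatty acids. In the liver most of their transcription is in hepatocytes near the central vein. Much of it responds to the nuclear receptors CAR (Nr1i3) and PXR (Nr1i2), which bind repeats of a short motif together with RXR, and several members differ between males and females. Many Cyp2c and Cyp2j enzymes form epoxides and alcohols from arachidonic acid and from the n-3 acids of fish oil.

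The sequences just before the start site of the genes that rose are shown because the motif of CAR, PXR and related receptors can be looked for in them. Of the 54 genes, 46 had an entry in the RefSeq promoter table (build GRCm38.p6). The 250 bases before the start are printed 5′ to 3′ on the strand of the gene, and capitals mark the motif, AGGTCA or AGTTCA on either strand (TGACCT or TGAACT when read on the printed strand). Cyp2c23, Cyp2c54, Cyp2d12, Cyp2d13, Cyp2d22, Cyp2d34, Cyp2g1 and Cyp2u1 had no match.
Cyp2a5, chr7:26835089-26835338, plus strand: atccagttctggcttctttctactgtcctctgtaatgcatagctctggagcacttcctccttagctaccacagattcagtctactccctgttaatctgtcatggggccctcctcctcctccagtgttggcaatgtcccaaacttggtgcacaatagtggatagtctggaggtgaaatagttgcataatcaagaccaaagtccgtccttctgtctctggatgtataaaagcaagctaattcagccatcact
Cyp2c29, chr19:39286835-39287084, plus strand: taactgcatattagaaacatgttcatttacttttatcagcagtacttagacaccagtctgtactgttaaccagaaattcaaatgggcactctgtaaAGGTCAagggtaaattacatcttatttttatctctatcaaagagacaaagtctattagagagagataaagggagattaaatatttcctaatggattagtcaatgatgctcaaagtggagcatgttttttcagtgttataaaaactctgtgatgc
Cyp2c37, chr19:39992174-39992423, plus strand: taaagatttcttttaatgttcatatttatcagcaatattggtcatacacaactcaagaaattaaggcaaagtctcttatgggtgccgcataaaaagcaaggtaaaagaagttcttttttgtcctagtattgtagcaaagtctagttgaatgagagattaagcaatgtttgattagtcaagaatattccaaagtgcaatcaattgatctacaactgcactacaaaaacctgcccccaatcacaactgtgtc
Cyp2c50, chr19:40089429-40089678, plus strand: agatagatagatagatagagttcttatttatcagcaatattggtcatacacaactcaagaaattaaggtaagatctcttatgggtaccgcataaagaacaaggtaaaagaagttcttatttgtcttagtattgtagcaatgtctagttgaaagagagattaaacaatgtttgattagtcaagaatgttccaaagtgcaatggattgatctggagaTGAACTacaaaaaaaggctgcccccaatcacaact
Cyp3a11, chr5:145879855-145880104, minus strand: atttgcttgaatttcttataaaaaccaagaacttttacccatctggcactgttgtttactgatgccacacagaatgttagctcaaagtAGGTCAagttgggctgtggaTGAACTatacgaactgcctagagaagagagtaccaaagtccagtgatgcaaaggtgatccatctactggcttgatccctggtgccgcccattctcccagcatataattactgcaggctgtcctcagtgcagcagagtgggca
Cyp3a44, chr5:145805875-145806124, minus strand: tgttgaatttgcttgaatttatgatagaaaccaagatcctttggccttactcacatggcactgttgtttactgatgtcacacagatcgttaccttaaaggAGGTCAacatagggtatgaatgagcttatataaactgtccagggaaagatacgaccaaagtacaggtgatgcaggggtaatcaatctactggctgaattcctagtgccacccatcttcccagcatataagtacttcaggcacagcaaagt
Cyp3a59, chr5:146079008-146079257, plus strand: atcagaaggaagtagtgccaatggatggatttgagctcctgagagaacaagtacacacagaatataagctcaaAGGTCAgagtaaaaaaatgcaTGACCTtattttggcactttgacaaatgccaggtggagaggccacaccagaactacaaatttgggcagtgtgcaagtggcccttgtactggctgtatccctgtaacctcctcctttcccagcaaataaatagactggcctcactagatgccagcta

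The 3 Cyp3a windows each held AGGTCA, starting 162 bases before the start of Cyp3a11, 150 before that of Cyp3a44 and 177 before that of Cyp3a59. In Cyp3a11 a second match, TGAACT, followed at 142 bases, and in Cyp3a59 TGACCT followed at 156 bases. Cyp2c29 held AGGTCA at 154 bases, Cyp2c50 held TGAACT at 35 bases, and the windows of Cyp2a5 and Cyp2c37 held neither. Of the 46 genes, 15 held AGGTCA in a window of any of their entries (32.6%), and 6 held AGTTCA (13.0%). Of all 32851 promoters in the table, counted entry by entry and not by gene, 14.0% and 11.8% did. These shares are therefore unlike measures. Genes not called also held AGGTCA: Cyp2b9, Cyp2b13, Cyp2b19, Cyp2b23, Cyp2c39, Cyp2c70, Cyp2f2, Cyp2j5, Cyp2t4, Cyp3a25 and Cyp3a57. For AGTTCA those were Cyp2c39, Cyp2c40, Cyp2c69 and Cyp2j12. A pair of motifs spaced as a direct repeat by 1, 3 or 4 bases, or as an everted repeat by 6 bases, was found in 0 of the 46. These pairs are rare in windows of this length (0.067%, 0.0122%, 0.0244% and 0.00913% of all promoters), and no match says only that the letters are not in these 250 bases. Closely related members share most of these letters: the windows of Cyp2a4 and Cyp2a5 were 97.6% identical, those of Cyp2b9 and Cyp2b13 99.2%, those of Cyp3a25 and Cyp3a59 94.8% and those of Cyp2c37 and Cyp2c50 84.3%. Probes of the array lie in transcripts, and which of them are shared between such genes was not tested.

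The signal of these genes ranged from strong to dim. The mean of 20 of the 54 was above the 95th percentile of all probe sets, 16 others were above the median, and 18 were below it. Cyp2b supplied 4 of those 18, Cyp3a supplied 3, and the dim genes thus included 4 of the 5 Cyp2b genes and, of Cyp3a, Cyp3a16, Cyp3a44 and Cyp3a57. Cyp2j8, Cyp2j11, Cyp2j12 and Cyp2j13 were dim too, and the others were genes of Cyp2c, Cyp2d and Cyp2t. By signal, the probe sets kept for per-mouse values in each subfamily were those of Cyp2a12, Cyp2b9, Cyp2c29, Cyp2d26, Cyp2j5 and Cyp3a11. Signals of different probe sets are no measure of relative abundance. As labelled, the tissue carried hepatocyte markers: the mean log2 signal of 10 of 10 listed hepatocyte genes lay between 12.44 and 12.82 in all groups.

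After 12 weeks of HFD-EPA/DHA, 8 of the 54 genes rose and 0 fell against control (limma, adjusted p under 0.05), and 22 had an unadjusted p under 0.05 (40.7%, against 8.44% of all probe sets). The genes that rose were Cyp2a5, Cyp2c29, Cyp2c37, Cyp2c50, Cyp2c54, Cyp3a11, Cyp3a44 and Cyp3a59, 14.8% of the family, where 0.617% of all 41345 probe sets passed in either direction and 0.3% rose. In 18 genes (33.3%) the 4 HFD-EPA/DHA mice lay above all 4 control mice, against 2.28% of all probe sets, in 0 they lay below (2.64% of probe sets), and 42 of 54 fold changes were above 0. The median of the 54 was 0.12 on the log2 scale, and that of all probe sets was −0.01. The count was 4 without Control replicate 2 or without HFD-EPA/DHA replicate 1 of 12 weeks (Cyp2c29, Cyp2c54, Cyp3a11 and Cyp3a44), and 5 without Control replicate 4 or HFD-EPA/DHA replicate 2 or 3 of that time (the same 4 and Cyp2a5). Without Control replicate 1 of 12 weeks 9 genes rose, Cyp2d9 being added, and Cyp2c55 fell, and without Control replicate 3 of 12 weeks Cyp3a59 was lost and Cyp2b9 gained.

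**Figure D1:**
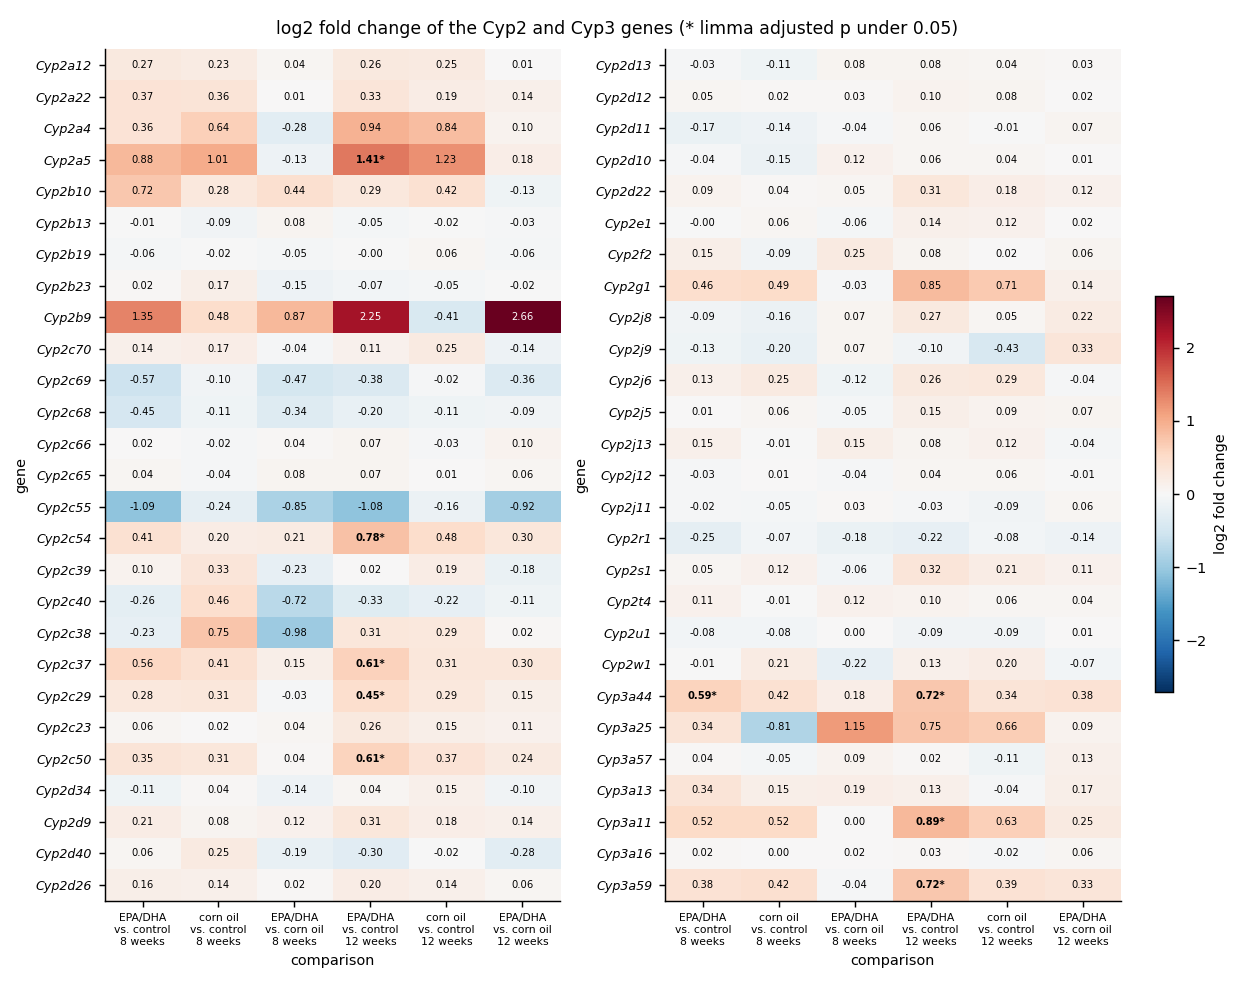
log2 fold change (colour and printed number) of each of the 54 genes (rows, in 2 blocks) in the 6 comparisons of diets (columns); an asterisk marks an adjusted p under 0.05 in limma. 8 asterisks stand in the column of HFD-EPA/DHA vs. control at 12 weeks and 1, for Cyp3a44, in that at 8 weeks; Cyp2b9 has the most intense colour, 2.66, without an asterisk.

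The Cyp3a family holds the enzymes with the widest range of drug substrates, and Cyp3a11 is the mouse gene usually set beside human CYP3A4. At 12 weeks its log2 signal was 11.45, 11.03, 11.22 and 11.14 in the control mice, 12.13, 12.21, 12.16 and 11.89 with HFD-EPA/DHA and 11.98, 11.88, 11.59 and 11.93 with HFD-corn oil. Every mouse of either high-fat diet was above every control mouse. The rise with HFD-EPA/DHA was 0.89 ± 0.14 (1.85-fold, adjusted p = 0.00118), and with HFD-corn oil the fold change was 0.63 ± 0.14 (adjusted p = 0.0626). At 8 weeks the values were 10.95, 11.50, 11.71 and 11.18 in control, 11.80, 11.63, 12.05 and 11.92 with HFD-EPA/DHA and 11.67, 11.85 and 12.03 with HFD-corn oil, and control replicate 3 reached into both other groups. Those fold changes were 0.52 and 0.52 (adjusted p = 0.105 and 0.144).

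Cyp3a44, a gene expressed mainly in female liver, was dim in these males. Its log2 signal at 12 weeks was 6.65, 6.75, 6.68 and 6.62 in control, 7.63, 7.65, 7.25 and 7.07 with HFD-EPA/DHA and 7.12, 7.11, 7.02 and 6.80 with HFD-corn oil, again with no overlap of either high-fat group with control. It rose by 0.72 ± 0.13 with HFD-EPA/DHA (adjusted p = 0.0062), and its fold change with HFD-corn oil was 0.34 (adjusted p = 0.452). It was also the only member called at 8 weeks. There the values were 6.38, 6.54, 6.91 and 6.45 in control, 7.08, 7.09, 7.27 and 7.21 with HFD-EPA/DHA and 6.82, 6.81 and 7.33 with HFD-corn oil, so that HFD-EPA/DHA was above control in every mouse and HFD-corn oil was not. The rise at 8 weeks was 0.59 ± 0.13 (adjusted p = 0.0438). That call was lost without any 1 of 12 arrays: Control replicates 1, 2 and 4 and all 4 HFD-EPA/DHA mice of 8 weeks, and Control replicates 1, 3 and 4 and HFD-corn oil replicates 1 and 3 of 12 weeks (adjusted p 0.0506 to 0.168).

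Cyp3a59 lies beside Cyp3a25 on chromosome 5. Its log2 signal at 12 weeks was 9.53, 8.80, 9.12 and 9.28 in control, 10.02, 10.14, 9.82 and 9.62 with HFD-EPA/DHA and 9.48, 9.80, 9.45 and 9.56 with HFD-corn oil. The HFD-EPA/DHA mice were above all control mice, and 2 HFD-corn oil mice lay below the highest control mouse. It rose by 0.72 ± 0.16 with HFD-EPA/DHA (adjusted p = 0.0259), and the fold change with HFD-corn oil was 0.39 (adjusted p = 0.458). At 8 weeks the fold changes were 0.38 and 0.42 (adjusted p = 0.468 and 0.446).

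Cyp3a25 was above control in every mouse of both high-fat diets at 12 weeks, but without passing the test. Its values were 9.79, 9.48, 9.07 and 10.00 in control, 10.55, 10.38, 10.24 and 10.16 with HFD-EPA/DHA and 10.56, 10.27, 10.05 and 10.10 with HFD-corn oil, with fold changes of 0.75 and 0.66 (adjusted p = 0.719 and 0.748). At 8 weeks HFD-corn oil replicate 1 stood at 7.08, where the other 2 fitted mice of that group had 10.33 and 9.78. The fold change of HFD-corn oil vs. control at 8 weeks was −0.81 with that mouse and 0.18 without it. The remaining Cyp3a genes stayed near 0 at 12 weeks: Cyp3a13, Cyp3a16 and Cyp3a57 had fold changes of 0.13, 0.03 and 0.02 with HFD-EPA/DHA.

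Another pair of probe sets carry the names of 4 Cyp3a genes each (Cyp3a41a, Cyp3a41b, Cyp3a11 and Cyp3a44) and were not counted as members. At 12 weeks they were higher by 1.17 and 1.30 with HFD-EPA/DHA (adjusted p = 0.000948 and 0.00137) and by 0.90 and 1.00 with HFD-corn oil (adjusted p = 0.032 and 0.0428). Of these, the calls with HFD-corn oil were lost without single arrays (6 of 23 for the first probe set and 13 of 23 for the second), Control replicates 2, 3 and 4 and HFD-corn oil replicates 1, 2 and 4 of 12 weeks being among them for both. Which of the 4 genes they read cannot be told from the files.

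Cyp2a5, the enzyme that hydroxylates coumarin and nicotine in the mouse, had the highest fold change of the genes that passed. Its log2 signal at 12 weeks was 8.90, 7.79, 8.27 and 8.77 in control, 10.30, 9.92, 9.79 and 9.39 with HFD-EPA/DHA and 9.69, 9.78, 9.66 and 9.52 with HFD-corn oil, so both high-fat groups lay above all control mice. The rise with HFD-EPA/DHA was 1.41 ± 0.27 (2.66-fold, adjusted p = 0.0088), and with HFD-corn oil the fold change was 1.23 ± 0.27 (2.35-fold, adjusted p = 0.0707). At 8 weeks the values were 9.33, 9.14, 9.45 and 7.89 in control, 9.69, 9.53, 10.30 and 9.81 with HFD-EPA/DHA and 9.81, 10.36 and 9.72 with HFD-corn oil. Neither group overlapped control there, and control replicate 4 stood far below the other 3 control mice. The fold changes at 8 weeks were 0.88 and 1.01 (adjusted p = 0.208 and 0.148).

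Cyp2a4, a steroid hydroxylase whose sequence differs little from that of Cyp2a5, followed it. Its values at 12 weeks were 9.26, 8.67, 9.53 and 9.46 in control, 10.68, 10.08, 10.12 and 9.81 with HFD-EPA/DHA and 10.10, 10.31, 9.93 and 9.94 with HFD-corn oil. No mouse of either high-fat diet overlapped control, and the fold changes of 0.94 and 0.84 did not pass (adjusted p = 0.065 and 0.2). Cyp2a12, with the strongest signal, had values of 12.35, 12.41, 12.58 and 12.47 in control, 12.70, 12.70, 12.71 and 12.74 with HFD-EPA/DHA and 12.62, 12.71, 12.74 and 12.74 with HFD-corn oil at 12 weeks. The groups did not overlap control, but the differences were small, 0.26 and 0.25 (adjusted p = 0.116 and 0.221). The fourth gene, Cyp2a22, had 0.33 and 0.19. All 4 fold changes of the subfamily were above 0 with both high-fat diets at both times.

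**Figure D2:**
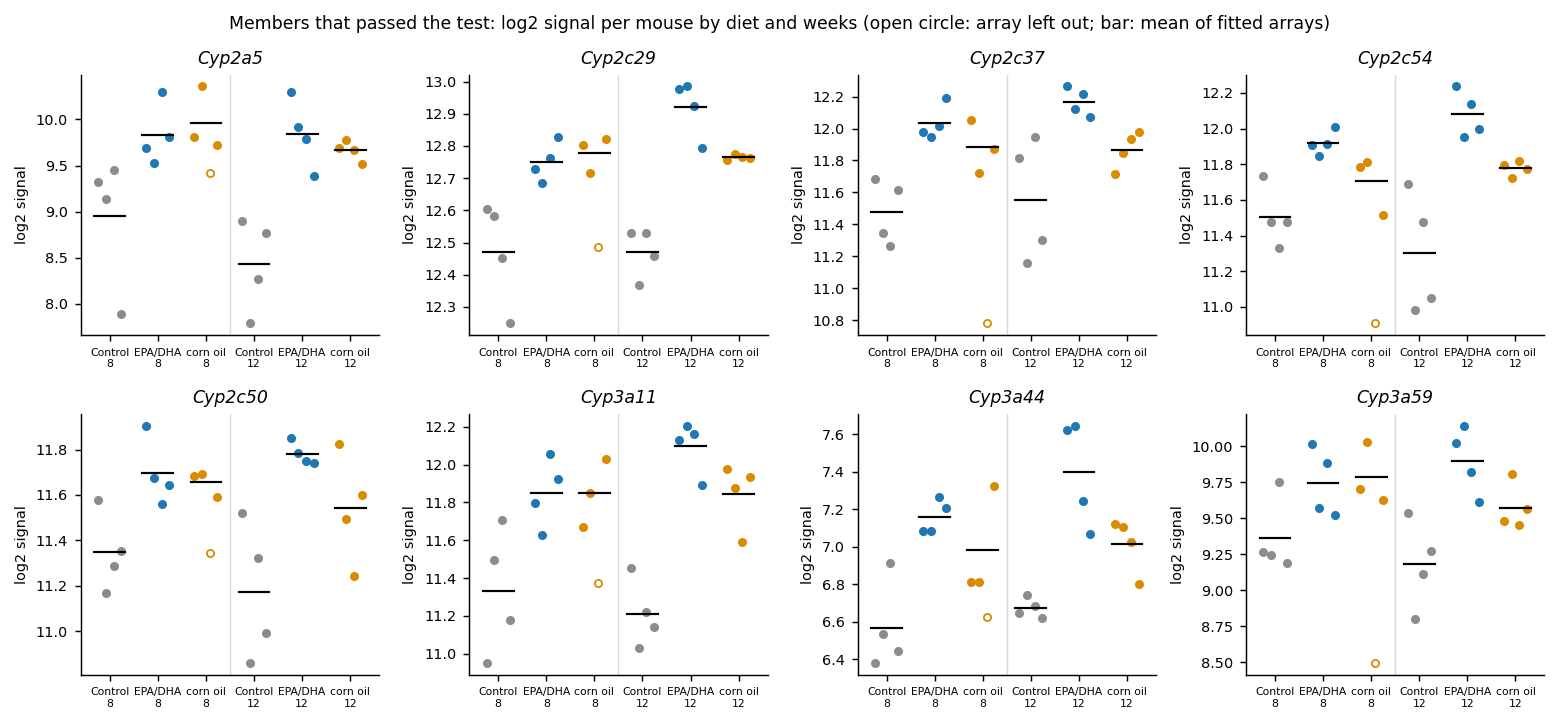
log2 signal (y axis) of the 8 genes that passed the test, per mouse, by diet and weeks (x axis: 3 diets at 8 and then at 12 weeks); bars are means of the fitted arrays and the open circle is the array left out. At 12 weeks all 4 HFD-EPA/DHA mice lie above all 4 control mice in each of the 8 panels, for Cyp3a11 between 11.89 and 12.21 against 11.03 to 11.45. The 8 genes were picked through this same comparison, so that separation is a description.

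Of the 14 Cyp2c genes, 4 rose with HFD-EPA/DHA at 12 weeks. Cyp2c29, an epoxygenase of arachidonic acid, had 12.53, 12.37, 12.53 and 12.46 in control, 12.98, 12.99, 12.92 and 12.79 with HFD-EPA/DHA and 12.76, 12.78, 12.77 and 12.76 with HFD-corn oil. The 3 groups did not overlap, HFD-EPA/DHA being highest and HFD-corn oil between. The rise against control was 0.45 ± 0.08 with HFD-EPA/DHA (adjusted p = 0.00362), and the fold change with HFD-corn oil was 0.29 ± 0.08 (adjusted p = 0.175). At 8 weeks it had 12.60, 12.58, 12.45 and 12.25 in control, 12.73, 12.69, 12.76 and 12.83 with HFD-EPA/DHA and 12.80, 12.72 and 12.82 with HFD-corn oil, with both high-fat groups above control and fold changes of 0.28 and 0.31 (adjusted p = 0.128 and 0.108). A second, dim probe set of Cyp2c29 had a fold change of 0.84 with HFD-EPA/DHA at 12 weeks (adjusted p = 0.0857).

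Cyp2c37, Cyp2c54 and Cyp2c50 are neighbours on chromosome 19 and, like Cyp2c29, oxidize arachidonic acid. Cyp2c54 had 11.69, 10.99, 11.47 and 11.05 in control, 12.24, 11.96, 12.14 and 12.00 with HFD-EPA/DHA and 11.80, 11.73, 11.82 and 11.78 with HFD-corn oil at 12 weeks, 3 groups without overlap. It rose by 0.78 ± 0.12 with HFD-EPA/DHA (1.72-fold, adjusted p = 0.00118), against 0.48 with HFD-corn oil (adjusted p = 0.138). For Cyp2c37 the values were 11.82, 11.16, 11.95 and 11.30 in control, 12.26, 12.12, 12.22 and 12.07 with HFD-EPA/DHA and 11.71, 11.84, 11.94 and 11.98 with HFD-corn oil. Its control mice fell into a pair near the high-fat values and a pair well below, and only HFD-EPA/DHA was above all 4. The rise was 0.61 ± 0.14 (adjusted p = 0.0313), and with HFD-corn oil the fold change was 0.31 (adjusted p = 0.522). Cyp2c50 had 11.52, 10.86, 11.32 and 10.99 in control, 11.85, 11.79, 11.75 and 11.74 with HFD-EPA/DHA and 11.83, 11.49, 11.25 and 11.60 with HFD-corn oil, with HFD-EPA/DHA again above all control mice and HFD-corn oil overlapping them. It rose by 0.61 ± 0.13 (adjusted p = 0.0193), against 0.37 with HFD-corn oil (adjusted p = 0.374).

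At 8 weeks the same 3 genes had fold changes with HFD-EPA/DHA of 0.56, 0.41 and 0.35 (Cyp2c37, Cyp2c54 and Cyp2c50), and with HFD-corn oil of 0.41, 0.20 and 0.31, and none passed. Cyp2c37 came nearest (adjusted p = 0.0706), with 11.68, 11.35, 11.26 and 11.61 in control and 11.98, 11.95, 12.02 and 12.19 with HFD-EPA/DHA, without overlap. Cyp2c54 also did not overlap, with 11.73, 11.48, 11.33 and 11.48 in control and 11.91, 11.84, 11.92 and 12.01 with HFD-EPA/DHA. In Cyp2c50 and Cyp3a59 a control mouse reached into the HFD-EPA/DHA group at that time.

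Not all of the subfamily moved this way. Cyp2c55, an arachidonic acid hydroxylase of colon and liver, had the lowest fold changes of all 54 genes with HFD-EPA/DHA at both times. Its values were 9.75, 9.38, 10.22 and 9.67 in control, 9.04, 8.23, 8.48 and 8.91 with HFD-EPA/DHA and 9.05, 9.26 and 10.24 with HFD-corn oil at 8 weeks. At 12 weeks they were 9.30, 10.16, 10.11 and 10.57 in control, 9.27, 9.56, 8.70 and 8.30 with HFD-EPA/DHA and 10.51, 9.89, 9.37 and 9.74 with HFD-corn oil. HFD-EPA/DHA lay below all control mice at 8 weeks and overlapped 1 control mouse at 12 weeks. The fold changes were −1.09 ± 0.30 and −1.08 ± 0.30 (adjusted p = 0.113 and 0.131), and at 12 weeks it passed without Control replicate 1 (−1.32, adjusted p = 0.0387).

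A second, dimmer probe set named Cyp2c55 went the opposite way. At 12 weeks it had 7.48, 8.00, 7.63 and 8.01 in control, 8.74, 8.84, 8.62 and 8.17 with HFD-EPA/DHA and 8.46, 8.17, 8.20 and 8.32 with HFD-corn oil, with both high-fat groups above control. Its fold change with HFD-EPA/DHA was 0.81 (adjusted p = 0.00907; 0.73 and 0.0542 without HFD-EPA/DHA replicate 2), so no direction can be given for this gene. Cyp2c68 and Cyp2c69, whose windows before the start were 91.3% identical, were below control in every HFD-EPA/DHA mouse at 8 weeks, with fold changes of −0.45 and −0.57 (adjusted p = 0.11 and 0.184). At 12 weeks those were −0.20 and −0.38. Cyp2c70, which makes muricholic acids in mice, had fold changes between 0.11 and 0.25 against control at both times, and Cyp2c23, an epoxygenase, had 0.26 with HFD-EPA/DHA at 12 weeks (adjusted p = 0.131).

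**Figure D3:**
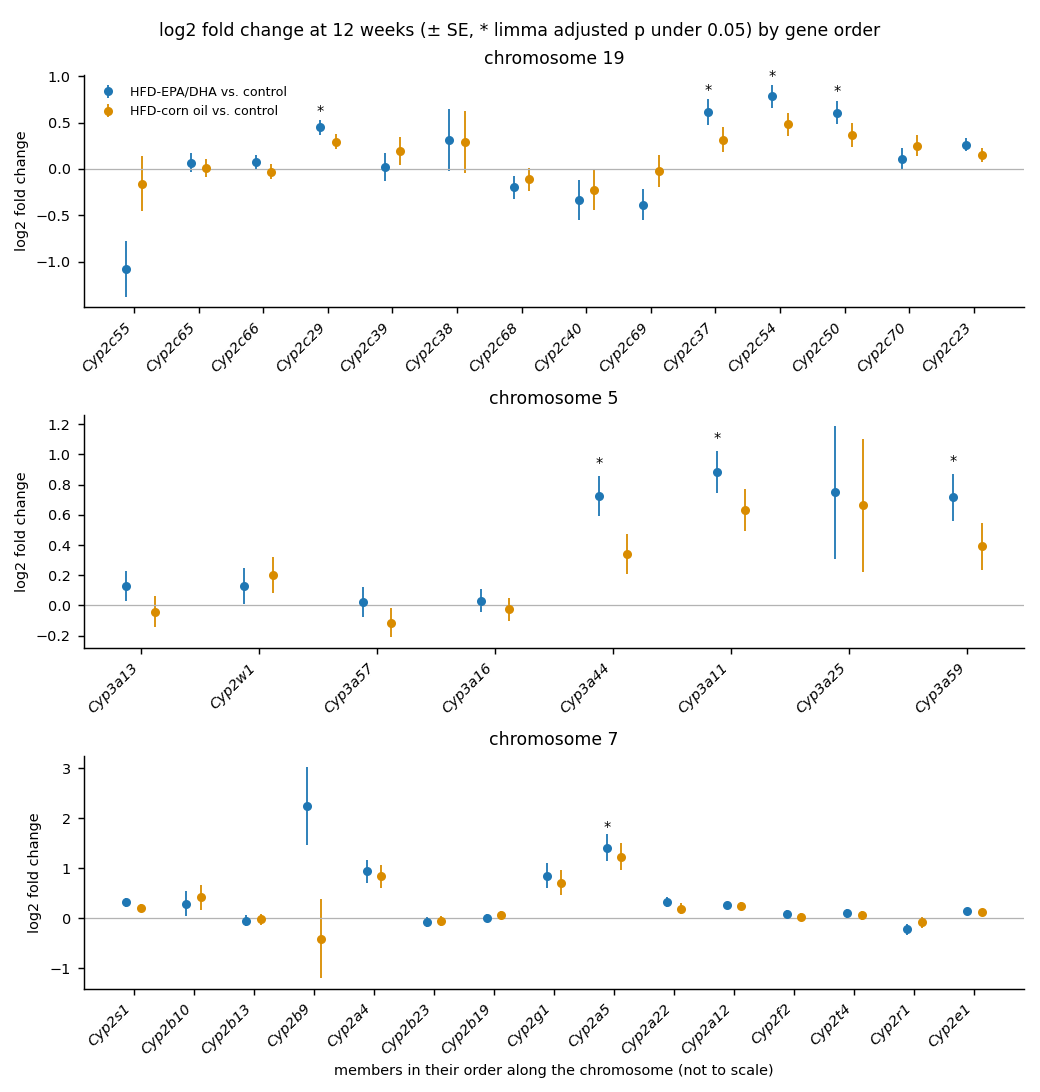
log2 fold change at 12 weeks (y axis, ± SE) with HFD-EPA/DHA and HFD-corn oil against control, by the order of the genes along chromosomes 19, 5 and 7 (x axis, not to scale); asterisks mark an adjusted p under 0.05. The called Cyp2c genes are Cyp2c29 and the neighbours Cyp2c37, Cyp2c54 and Cyp2c50, and of Cyp3a Cyp3a44, Cyp3a11 and Cyp3a59; Cyp2c55 at one end of the row on chromosome 19 is at −1.08 with HFD-EPA/DHA.

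Among the Cyp2b genes 0 of 5 passed in any comparison in limma, and mice of 1 group differed widely. With HFD-EPA/DHA at 12 weeks 1 of the 5 had an unadjusted p under 0.05 (8.44% of all probe sets did). Cyp2b10, the classical target of CAR, was dim, and its 12-week values of 6.30, 6.55, 6.61 and 6.54 in control, 6.65, 7.13, 6.71 and 6.67 with HFD-EPA/DHA and 6.96, 6.91, 6.62 and 7.18 with HFD-corn oil were higher in every high-fat mouse, with fold changes of 0.29 and 0.42 (adjusted p = 0.853 and 0.699). At 8 weeks HFD-EPA/DHA replicate 4 stood at 8.17, and the other 3 mice of its group had 6.42 to 7.20. The same mouse was the highest of its group for Cyp2b9, a gene expressed mainly in females, with 10.04 against 6.76 to 7.64. Cyp2b13, whose start window was nearly that of Cyp2b9, stayed between −0.09 and 0.08 in the comparisons of diets.

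Cyp2b9 had the highest fold change of the 54 genes with HFD-EPA/DHA, and its mice differed widely. At 12 weeks its values were 6.76, 6.37, 10.73 and 7.02 in control, 11.27, 11.35, 7.94 and 9.33 with HFD-EPA/DHA and 7.89, 7.65, 6.51 and 7.19 with HFD-corn oil. HFD-EPA/DHA lay above HFD-corn oil in every mouse, and control replicate 3 was within the HFD-EPA/DHA group. The fold change was 2.25 ± 0.79 against control (adjusted p = 0.316) and 2.66 ± 0.79 against HFD-corn oil (adjusted p = 0.782). Without Control replicate 3 the former was 3.25 (adjusted p = 0.0216). At 8 weeks it was 1.35, and 0.64 without HFD-EPA/DHA replicate 4.

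**Figure D4:**
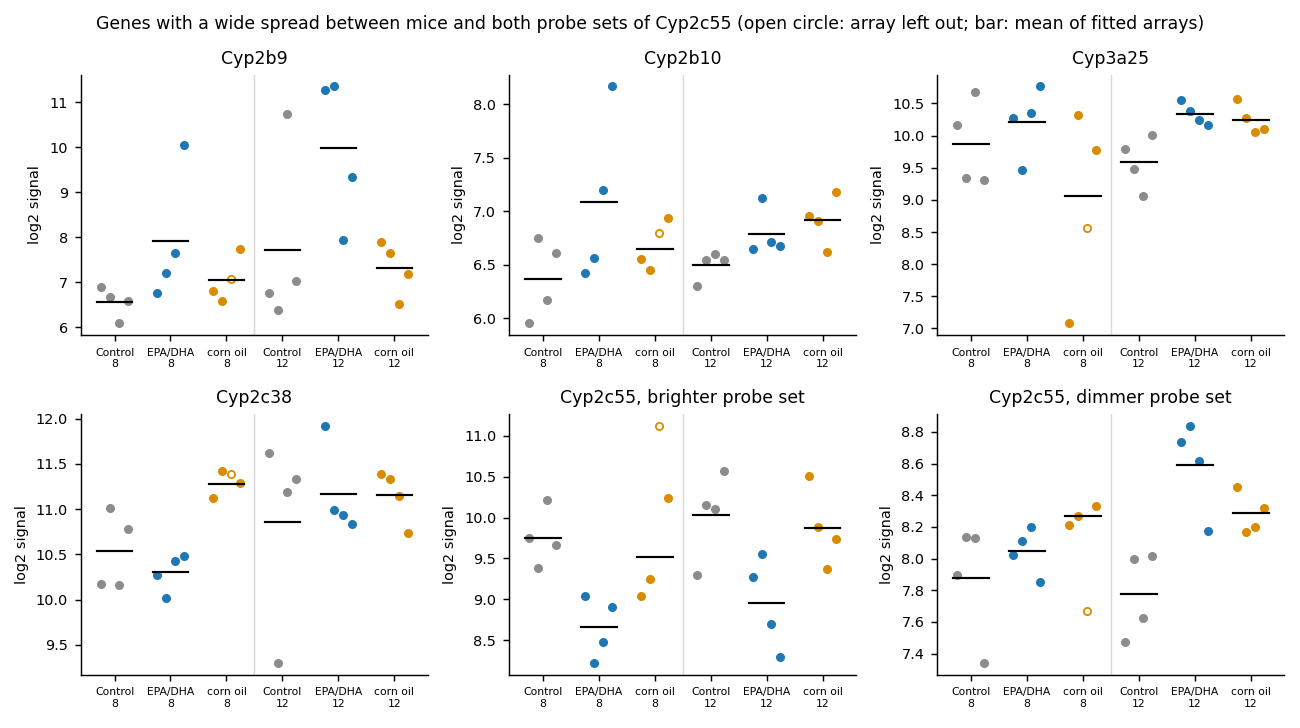
log2 signal (y axis) per mouse by diet and weeks (x axis) of Cyp2b9, Cyp2b10, Cyp3a25, Cyp2c38 and both probe sets of Cyp2c55; bars are means of the fitted arrays and the open circle is the array left out. Single mice stand far from their groups, such as the control mouse at 10.73 for Cyp2b9 and the HFD-corn oil mouse at 7.08 for Cyp3a25, and the 2 probe sets of Cyp2c55 run in opposite directions with HFD-EPA/DHA.

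The spread between mice of 1 group was typical of the array for most members and wide for a few. The residual SD had a median of 0.154 over the 54 genes and 0.156 over all probe sets. In 9 of the 54 it was above the 95th percentile of all probe sets (0.285): Cyp2b9 (1.31), Cyp3a25 (0.73), Cyp2c38 (0.55), Cyp2c55 (0.49), Cyp2a5 (0.44), Cyp2b10 (0.41), Cyp2g1 (0.40), Cyp2a4 (0.38) and Cyp2c40 (0.35).

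Of the 9 Cyp2d genes, the family of human CYP2D6, 0 passed in any comparison in limma. With HFD-EPA/DHA at 12 weeks 4 of the 9 had an unadjusted p under 0.05, where 8.44% of all probe sets did. Fold changes against control at 12 weeks lay between −0.30 (Cyp2d40) and 0.31 (Cyp2d9, a testosterone hydroxylase higher in males), both with HFD-EPA/DHA. Cyp2d26 had 12.41, 12.27, 12.47 and 12.39 in control, 12.55, 12.62, 12.62 and 12.57 with HFD-EPA/DHA and 12.55, 12.54, 12.52 and 12.50 with HFD-corn oil at 12 weeks. Both high-fat groups lay above control by 0.20 and 0.14 (adjusted p = 0.326 and 0.613). Cyp2d22 had 0.31 with HFD-EPA/DHA (adjusted p = 0.127).

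Of the 7 Cyp2j genes 0 passed in any comparison in limma, and 1 had an unadjusted p under 0.05 with HFD-EPA/DHA at 12 weeks (8.44% of all probe sets did). Cyp2j8, Cyp2j11, Cyp2j12 and Cyp2j13 had signals below the median of all probe sets. Cyp2j5, an epoxygenase of kidney and liver, had 12.54, 12.44, 12.50 and 12.52 in control, 12.74, 12.64, 12.60 and 12.62 with HFD-EPA/DHA and 12.62, 12.66, 12.55 and 12.51 with HFD-corn oil at 12 weeks, with fold changes of 0.15 and 0.09 (adjusted p = 0.614 and 0.83). Every HFD-EPA/DHA mouse lay above control. Cyp2j9 was below control in every HFD-corn oil mouse at 12 weeks, −0.43 (adjusted p = 0.278), and had −0.10 with HFD-EPA/DHA.

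The single genes of the other subfamilies did not pass. Cyp2e1, which oxidizes ethanol, had fold changes of 0.14 and 0.12 at 12 weeks. Cyp2f2, which activates naphthalene, had 0.08 and 0.02, and Cyp2r1, a vitamin D 25-hydroxylase, had −0.22 and −0.08. Cyp2g1, a gene of the olfactory mucosa in the same row on chromosome 7 as the Cyp2a genes, had 6.91, 6.84, 6.70 and 6.85 in control, 8.16, 7.57, 7.38 and 7.58 with HFD-EPA/DHA and 7.48, 7.89, 7.51 and 7.27 with HFD-corn oil. Both high-fat groups were above all control mice, by 0.85 and 0.71 (adjusted p = 0.163 and 0.374).

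The subfamilies were set beside each other by the mean deviation of their genes from each gene's mean over the 23 arrays, as a description without a test. For Cyp2a this was −0.89 to −0.31 in the control mice of 12 weeks, −0.05 to 0.51 with HFD-EPA/DHA and 0.08 to 0.16 with HFD-corn oil, with no overlap with control. For Cyp3a it was −0.37 to −0.04, 0.09 to 0.34 and −0.03 to 0.13, again with both high-fat groups above control. Cyp2c, Cyp2d and Cyp2j stayed within 0.3 of 0 in all fitted mice, and the 3 diets overlapped in Cyp2c at 12 weeks. At 8 weeks Cyp2c was 0.05 to 0.20 in the 3 fitted HFD-corn oil mice, above −0.13 to 0.0014 in control and −0.15 to −0.04 with HFD-EPA/DHA. The HFD-corn oil mouse left out had −0.30, below all of these. In the highest mouse, replicate 1, Cyp2c40 was 9.69, against 8.48 and 8.12 in the other fitted mice of its group. The median fold change with HFD-EPA/DHA at 12 weeks was 0.64 in Cyp2a, 0.72 in Cyp3a, 0.09 in Cyp2c, 0.08 in Cyp2d and Cyp2j and −0.0034 in Cyp2b.

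**Figure D5:**
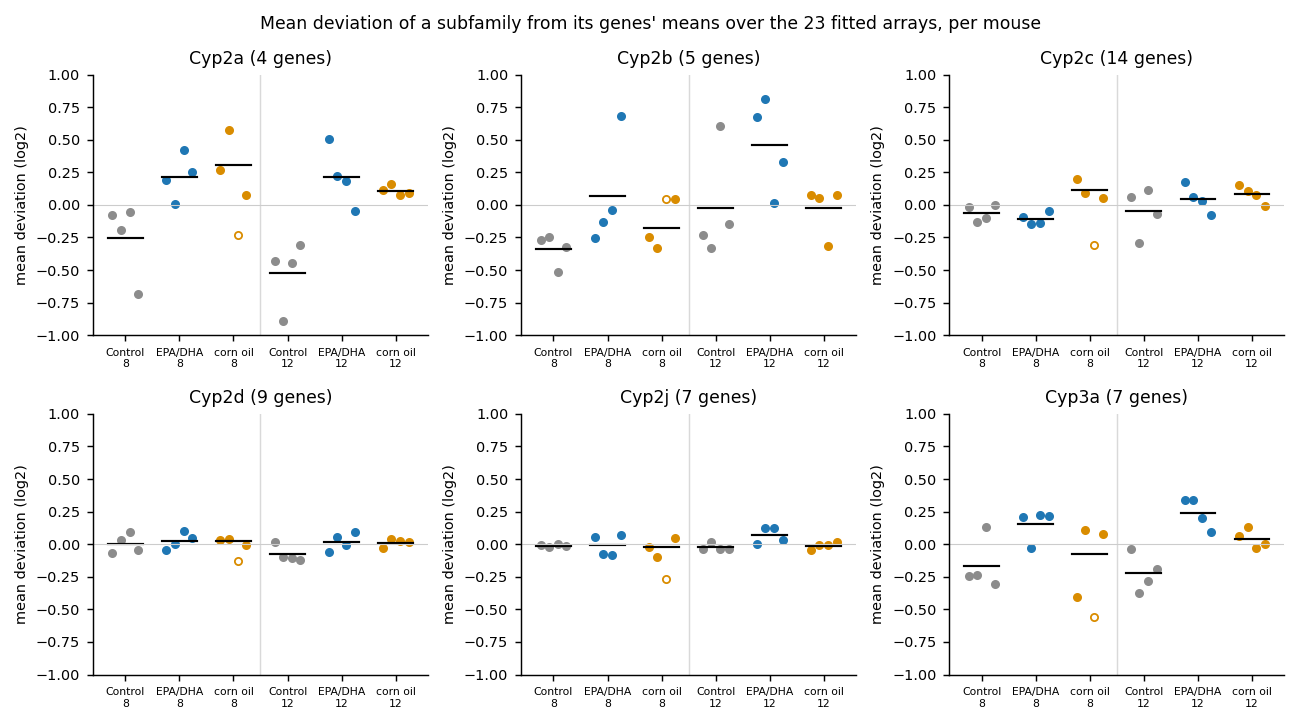
Mean log2 deviation (y axis) of the genes of 6 subfamilies from each gene's mean over the 23 fitted arrays, per mouse, by diet and weeks (x axis); bars are group means and the open circle is the array left out. In Cyp2a both high-fat groups of 12 weeks lie above the control mice (−0.89 to −0.31), in Cyp3a they do so by less, and Cyp2d and Cyp2j stay near 0.

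With HFD-corn oil at 12 weeks 0 of the 54 genes passed in limma, where 0.179% of all probe sets did, and 17 had an unadjusted p under 0.05, 16 of them higher (31.5% of the genes, against 8.53% of probe sets). The smallest adjusted p was 0.0626, for Cyp3a11. Cyp3a11 passed without Control replicate 1 or 3 or HFD-EPA/DHA replicate 2 of 8 weeks or Control replicate 1 of 12 weeks (adjusted p 0.0312 to 0.0495), and Cyp2a5 without Control replicate 4 of 8 weeks or Control replicate 1 of 12 weeks (0.0112 and 0.0412). Cyp2c54 also passed without Control replicate 1 of 12 weeks. HFD-corn oil lay above all control mice in 14 genes (25.9%, against 2.09% of probe sets) and below them in 1, Cyp2j9 (1.85%, against 2.5%). The fold changes of the 8 genes called with HFD-EPA/DHA ranged here from 0.29 (Cyp2c29) to 1.23 (Cyp2a5). Both comparisons rest on the same 4 control mice, so the fold changes are given side by side and not as 2 separate observations.

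Between the high-fat diets 0 of 54 genes passed in limma at 12 weeks, where 0.00967% of all probe sets did, and 9 had an unadjusted p under 0.05 (16.7%, against 4.63%). The 8 genes called against control differed between HFD-EPA/DHA and HFD-corn oil by 0.15 (Cyp2c29) to 0.38 (Cyp3a44), HFD-EPA/DHA minus HFD-corn oil, each with SE between 0.08 and 0.27. They were picked through the same HFD-EPA/DHA mice, so that range is a description. HFD-EPA/DHA lay above HFD-corn oil in every mouse for Cyp2b9, Cyp2c29, Cyp2c37, Cyp2c54 and Cyp2d22 (9.26% of the genes, against 1.55% of probe sets) and below it for Cyp2d34 and Cyp2d40 (3.7%, against 1.35%).

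At 8 weeks 1 gene, Cyp3a44, rose with HFD-EPA/DHA, where 0.443% of all probe sets passed and 0.14% rose, and 17 genes had an unadjusted p under 0.05 (31.5%, against 8.05%). HFD-EPA/DHA lay above control in every mouse in 8 genes (14.8%, against 1.96% of probe sets) and below in 4 (7.41%, against 2.19%). With HFD-corn oil 0 passed in limma (0.738% of probe sets did), 11 had an unadjusted p under 0.05, all higher (20.4%, against 8.23%), 10 lay above every control mouse (18.5%, against 3.27%) and 0 lay below (5.87% of probe sets). Between the high-fat diets 0 passed in limma (0.0266% of probe sets did), 7 had an unadjusted p under 0.05 (13%, against 6.92%), and HFD-EPA/DHA lay above in 4 genes and below in 4 (7.41% each, against 5.31% and 2.42%), with Cyp3a25 highest at 1.15 and Cyp2c38 lowest at −0.98.

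Whether the response changed from 8 to 12 weeks was tested as a difference of fold changes. For HFD-EPA/DHA against control, for HFD-corn oil against control and between both high-fat diets, 0 of 54 genes passed in limma, as did 0% of all probe sets. An unadjusted p under 0.05 was found for 3, 2 and 0 genes, against 4.95%, 3.64% and 4.46% of probe sets. The larger number of calls at 12 weeks is therefore not shown to be a change with time. Within a diet, 0 genes passed between 8 and 12 weeks in control (0.00967% of probe sets did), HFD-EPA/DHA (0%) or HFD-corn oil (0%), and 4, 3 and 2 had an unadjusted p under 0.05 (6.89%, 5.49% and 3.32% of probe sets did). The lowest changes in control were those of Cyp2g1 (−0.61), Cyp2a4 (−0.57) and Cyp2a5 (−0.52, unadjusted p = 0.0695). For these 3 genes all control mice of 12 weeks lay below all high-fat mice of that time.

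Genes that work with these enzymes were taken from lists. Of 22 receptors and transcription factors that act on Cyp2 and Cyp3 genes, 21 were measured. With HFD-EPA/DHA at 12 weeks 1 of them rose (0.3% of all probe sets did), Nr1i3, which encodes CAR. Its log2 signal was 10.59, 9.66, 9.81 and 10.03 in control, 11.24, 11.10, 10.91 and 11.22 with HFD-EPA/DHA and 10.45, 11.04, 10.93 and 10.45 with HFD-corn oil. HFD-EPA/DHA was above control in every mouse, by 1.09 ± 0.23 (adjusted p = 0.0231), and the fold change with HFD-corn oil was 0.70 (adjusted p = 0.346). At 8 weeks Nr1i3 did not pass. It was then 10.22 to 10.897 in control, 10.395 to 11.508 with HFD-EPA/DHA and 10.476 to 11.525 in the fitted HFD-corn oil mice. The call at 12 weeks was lost without Control replicate 2, 3 or 4 or HFD-EPA/DHA replicate 1, 2 or 4 of 12 weeks (adjusted p 0.0623 to 0.1). Nr1i2, which encodes PXR, had 0.22 (adjusted p = 0.631). Of the 21, 4 had an unadjusted p under 0.05 in that comparison (8.44% of probe sets did), and 14 were above 0. Between control mice of 12 and 8 weeks 0 passed in limma and 6 were above 0. There 7 had an unadjusted p under 0.05 (6.89% of probe sets). The listed Dbp had 8.51, 7.15, 7.23 and 8.34 in control at 12 weeks and 10.57, 10.93, 10.98 and 9.77 at 8 weeks. With HFD-EPA/DHA at 12 weeks it had 8.14 to 9.44 and with HFD-corn oil 8.46 to 10.02. Its part was not tested.

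Of 19 other targets of CAR and PXR, 14 were measured, and 3 rose with HFD-EPA/DHA at 12 weeks (0.3% of all probe sets rose). There 8 of the 14 had an unadjusted p under 0.05 (8.44% of probe sets did), 12 were above 0 and the median fold change was 0.28. Abcc3, a pump for conjugates in the sinusoidal membrane, had 11.30, 10.37, 10.89 and 11.21 in control, 12.16, 12.02, 12.06 and 11.72 with HFD-EPA/DHA and 11.74, 11.89, 11.70 and 11.58 with HFD-corn oil, again without overlap of control with either. It rose by 1.05 ± 0.15 (adjusted p = 0.000583), and Ces2a, a carboxylesterase, by 0.68 ± 0.09 (adjusted p = 0.000472). Aldh1a1, which oxidizes retinal, rose by 0.36 (adjusted p = 0.026), a call lost without Control replicate 2 or 4 or HFD-EPA/DHA replicate 1, 2 or 3 of 12 weeks. With HFD-corn oil at 12 weeks Abcc3 alone was called, at 0.78 (adjusted p = 0.0222), and not without Control replicate 2 or 3 or HFD-corn oil replicate 1, 2 or 3 of 12 weeks. Of all probe sets 0.179% passed in that comparison. There 7 of the 14 had an unadjusted p under 0.05 (8.53% of probe sets did), 13 were above 0 and the median was 0.22. At 8 weeks Aldh1a1 and its close relative Aldh1a7 rose with HFD-corn oil by 0.35 and 0.48 (adjusted p = 0.0492 and 0.0411), where HFD-EPA/DHA had 0.30 and 0.28 (adjusted p = 0.097 and 0.362). Of all probe sets 0.738% passed with HFD-corn oil at 8 weeks. The call of Aldh1a7 was lost without Control replicate 2, 3 or 4 or any fitted HFD-corn oil mouse of 8 weeks or HFD-EPA/DHA replicate 1 or 2 of 12 weeks. That of Aldh1a1 was lost without any of 18 arrays, and was kept only without Control replicate 1 or HFD-EPA/DHA replicate 2 of 8 weeks or Control replicate 2 or 3 or HFD-corn oil replicate 2 of 12 weeks.

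Of 16 genes for electron donors and heme supply, 14 were measured, and Blvrb, a biliverdin reductase, and Cpox, a step of heme synthesis, rose with HFD-EPA/DHA at 12 weeks by 0.44 and 0.36 (adjusted p = 0.0231 and 0.0418). Of all probe sets 0.3% rose there. Of the 14 genes, 5 had an unadjusted p under 0.05 (8.44% of probe sets did) and 8 were above 0. Blvrb did not pass without Control replicate 2 or 3 or HFD-EPA/DHA replicate 1, 2 or 3 of 12 weeks. Cpox failed without any of 13 arrays: Control replicate 4, HFD-EPA/DHA replicate 1 and all 3 fitted HFD-corn oil mice of 8 weeks, Control replicates 2, 3 and 4, HFD-EPA/DHA replicates 1, 2 and 3 and HFD-corn oil replicates 2 and 4 of 12 weeks.

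Sex-biased genes were followed because several members differ between males and females. Of the 8 measured female-biased members, Cyp3a44 was called at 12 weeks with HFD-EPA/DHA (0.3% of all probe sets rose). There 4 of the 8 had an unadjusted p under 0.05 (8.44% of probe sets did). The list, which includes Cyp2a4, Cyp2b9 and Cyp2c69, held changes in both directions: 5 were above 0, and the median fold change was 0.02. Of 10 male-biased liver genes measured 0 passed in limma at that comparison, and 4 had an unadjusted p under 0.05 (8.44% of probe sets did). Of 8 female-biased liver genes outside the family, 1 passed in limma with HFD-EPA/DHA at 12 weeks (0.617% of all probe sets did), Cyp17a1, a steroid hydroxylase. It fell by 2.49 (adjusted p = 0.000425) and had −2.18 at 8 weeks (adjusted p = 0.00158). With HFD-corn oil it had −1.68 at 12 weeks and −1.65 at 8 weeks (adjusted p = 0.0352 and 0.0373). The calls with HFD-corn oil were lost without Control replicate 2, 3 or 4 or any fitted HFD-corn oil mouse of the same time.

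Fewer cells of a type and less RNA per cell cannot be told apart in whole liver. Of the listed markers for 7 classes of liver cells (hepatocytes, Kupffer cells, stellate, endothelial and bile duct cells, lymphocytes and neutrophils), 0 passed in limma in any of the 6 comparisons of diets. With HFD-EPA/DHA at 12 weeks 2 hepatocyte and 6 Kupffer cell markers, and 0 of the other 5 classes, had an unadjusted p under 0.05. Of all probe sets 8.44% did. There 3 of 10 hepatocyte markers (median −0.09) and 1 of 10 Kupffer cell markers (median −0.35) were above 0. With HFD-corn oil at 12 weeks 0 of 10 Kupffer cell markers were above 0 (median −0.22). In control all 10 were higher at 12 than at 8 weeks (median 0.31), 5 with an unadjusted p under 0.05 (6.89% of probe sets did). The 10 Kupffer cell markers had a mean signal of 9.48 to 10.01 in control, 9.34 to 9.66 with HFD-EPA/DHA and 9.36 to 9.62 with HFD-corn oil at 12 weeks. Markers of hepatocytes near the central vein (9 of 10 measured) had mean signals of 10.44 to 10.58 in control, 10.55 to 10.74 with HFD-EPA/DHA and 10.57 to 10.87 with HFD-corn oil at 12 weeks, and Aldh3a2 alone passed among them, with HFD-EPA/DHA at 12 weeks and with HFD-corn oil at both times. Of 7 measured markers of hepatocytes near the portal vein 0 passed in limma, and 1 had an unadjusted p under 0.05 with HFD-EPA/DHA at 12 weeks. Their mean signals at 12 weeks were 11.854 to 12.006 in control, 11.675 to 11.868 with HFD-EPA/DHA and 11.715 to 11.914 with HFD-corn oil. With HFD-corn oil at 8 weeks they were 11.486 to 11.738, below 11.817 to 11.985 in control. There 0 of 7 were above 0, and 3 had an unadjusted p under 0.05 (8.23% of probe sets did). The markers near the central vein were 10.687 to 10.816 there, above 10.548 to 10.684 in control. The part of these cell types in the changes of Cyp2 and Cyp3 genes was not tested.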

How the data were processed

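The livers of 24 mice were run on 24 Affymetrix Mouse Gene 2.0 ST chips. The authors made the deposited values, which were read as log2 signals from their range (4.39 to 13.93; the scale is not named), in Expression Console with iter-PLIER, quantile normalization and perfect match probes. Array medians were 7.14 to 7.21, 0 value columns were left unmapped, and no depth applies to arrays: their number limits the precision. Groups came from the sample labels. Probe sets were named from the platform annotation: 23521 had 1 gene symbol, 1820 had several and 16004 had none.

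A mean for each of 6 groups was fitted to 23 arrays with lmFit, contrasts.fit and eBayes (limma 3.58.1, R 4.3.3). Two-sided p-values were corrected after Benjamini-Hochberg across the 41345 probe sets, threshold 0.05; the fit was tested on simulated data. A fold change is on the log2 scale without an offset. Replicate numbers did not pair mice and were used as a block in an alternative only. The members and gene lists were chosen with earlier results of these data known. Values per mouse are given for each member called in a comparison of diets and the brightest of each subfamily with over 1 gene; other members are counted, with the lowest and highest named. Cyp2b10, Cyp2c38, Cyp2c55, Cyp2g1, Cyp3a25 and the other genes named beside these were chosen after their values were seen. Promoters came from RefSeq (GRCm38.p6), read with pandas 2.3.3 and aligned with Biopython 1.88 under Python 3.11.15, and figures were drawn with matplotlib 3.10.9. Alternatives were all 24 arrays with and without weights, an offset of 16, probe sets above the median or with 1 symbol, other normalizations, separate fits, eBayes with trend and robust, the replicate block, averaged probe sets and each array left out in turn.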

Additional observations from a re-analysis of the deposited data

Results flagged for a closer look

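The genes looked at were the members called in a comparison of diets and the brightest of each subfamily with over 1 gene. Of their 60 groups of 4 mice, 2 held a mouse whose gap to the others was wide for the range of its group. Chance gives about 1 in 20. Other genes with values per mouse were not looked at in this way. In the control mice of 8 weeks, Cyp3a59 was 9.75 in replicate 3, and the nearest mouse had 9.26. In the control mice of 12 weeks, Cyp2b9 was 10.73 in replicate 3, and the nearest had 7.02.

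Probe sets of these families that were not counted as members also carried calls. The probe set named for both Cyp2c67 and Cyp2c68 was lower with HFD-EPA/DHA at 8 weeks (−0.44, adjusted p = 0.0297 in limma), a call lost without Control replicate 3 or 4 or HFD-EPA/DHA replicate 1, 2 or 4 of 8 weeks. The second probe set of Cyp2c55 was higher with HFD-EPA/DHA at 12 weeks (0.81), opposite to the brighter one. The 2 probe sets named for Cyp3a41a, Cyp3a41b, Cyp3a11 and Cyp3a44 were higher at 12 weeks by 1.17 and 1.30 with HFD-EPA/DHA and by 0.90 and 1.00 with HFD-corn oil.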

How the results depend on the processing

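Counts of called genes moved by over 1.5 times as follows. For HFD-EPA/DHA vs. control at 8 weeks the count of 1 became 0 with all 24 arrays, 2 with probe sets of 1 symbol and 3 with trend and robust settings, and 0 to 2 when single arrays were left out. Its 1 call became Cyp2c37 with array weights or in a fit per week and Cyp2c55 (lower) in a fit of the 2 groups, so that Cyp3a44 was lost in 17 of 34 alternatives. For HFD-corn oil vs. control at 8 weeks the count of 0 became 1 with array weights or with trend and robust settings. At 12 weeks it became 1 with array weights or with trend and robust settings, 2 with probe sets above the median, with 1 symbol, in a fit per week or in a fit of the 2 groups compared, and 0 to 3 when single arrays were left out. For HFD-EPA/DHA vs. control at 12 weeks the count of 8 was 4 to 10 without single arrays, 6 with all 24 arrays (Cyp2c37 and Cyp3a59 lost) or in a fit of the 2 groups compared (Cyp2c37, Cyp2c50 and Cyp3a59 lost, Cyp2g1 gained), 8 in a fit per week (Cyp2c37 and Cyp2c50 lost, Cyp2a4 and Cyp2g1 gained), and 11 with trend and robust settings; Cyp2c29, Cyp2c54 and Cyp3a11 were called in all 35 alternatives and Cyp3a44 in the 34 that tested it. All other counts stayed at 0.

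With all 24 arrays the median fold change of HFD-corn oil vs. control at 8 weeks was 0.065 in Cyp2c (from 0.19) and −0.013 in Cyp3a (from 0.15), and that between the high-fat diets was 0.11 in Cyp2j (from 0.028) and 0.27 in Cyp3a (from 0.089). Normalizing again gave 0.048 for Cyp2j with HFD-corn oil at 8 weeks (from −0.0083). Cyp3a25 with HFD-corn oil at 8 weeks turned from −0.81 to 0.18 without HFD-corn oil replicate 1 and was −1.45 without replicate 2. Cyp2c55 was −0.13 with HFD-EPA/DHA at 12 weeks when both probe sets were averaged. The cause was not tested in any of these.

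Same-numbered mice were not alike: 55 pairs correlated from −0.31 to 0.26 and 7 of 23 arrays matched their own number best. With the replicate block 0 genes were called for HFD-EPA/DHA vs. control at 8 weeks (Cyp3a44, adjusted p = 0.0735), the 2 probe sets of several Cyp3a genes missed the threshold with HFD-corn oil at 12 weeks (0.0515 and 0.0636), and no other call of a Cyp2 or Cyp3 gene changed. The planned comparison of protein sequences was not run. Signals near background compress fold changes, which bears on the 18 dim genes.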
